A study of Mus musculus with 96 samples.

Results

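Maternal liver of mice on an ordinary light schedule was followed over the day. The samples were the 12 libraries of control pregnant females, out of 96 in the study, which also covered a shifting light schedule, fetuses and grown offspring. All mice were C57BL/6J, an inbred strain, and the control mothers were kept on 12 h light and 12 h dark in pregnancy. Livers were collected at ZT0, ZT6, ZT12 and ZT18, with 3 libraries at each time, where ZT, Zeitgeber time, gives the hours since lights on, so that ZT12 is lights off. Poly(A) RNA was sequenced from Illumina TruSeq libraries, and each gene was given in FPKM, fragments scaled by transcript length and library size. The day of gestation, the feeding of the mothers and whether the 3 libraries of a time came from separate females were not stated in the sources used, so that p-values measure only the spread between these libraries.

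The liver clock is a transcriptional loop. ARNTL with CLOCK or NPAS2 binds E-boxes and switches on the Period and Cryptochrome genes, whose proteins then inhibit the activators, while REV-ERB and ROR receptors compete at RORE elements in Arntl and other genes, and the PAR bZIP factors DBP, TEF and HLF act through D-boxes. In mouse liver this loop, meals and adrenal hormones time much of metabolism, and the liver grows during pregnancy, in part by hepatocytes that copy their DNA.

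No counts were used, so the depth of each library and counting errors are unknown. The sum of FPKM ran from 546150 to 605619, the scaling factors from 0.931 to 1.10, and Pearson correlations of log2(FPKM + 1) between libraries from 0.960 to 0.991. Hepatocyte markers summed to 118200 to 170600 FPKM over the 12 libraries, and none of the 8 changed with time (3 at an unadjusted p under 0.05). Of the markers tested, 0 of 10 for endothelium, 0 of 12 for Kupffer cells, 0 of 11 for stellate cells and matrix and 0 of 3 for bile duct cells changed in limma's F test (3, 1, 1 and 0 at an unadjusted p under 0.05). None of the 7 tested markers of lymphocytes, neutrophils, red cells, exocrine pancreas and fat cells changed, with 0 at an unadjusted p under 0.05. The 8 placenta and decidua markers summed to 0.159 FPKM at most. Fewer cells of a type and less RNA per cell cannot be told apart in such bulk samples. Of the libraries, 2 stood apart from their group: ZT0 replicate 1 was most like ZT6 replicate 1, and ZT6 replicate 3 most like ZT0 replicate 1. In ZT6 replicate 3, 11 of the 15 clock genes that changed with time had the ZT6 value lying farthest toward ZT0. A fit without both libraries is given for the main counts and for the named genes whose call or highest time it moved. Both were picked from these same values for lying apart from their groups, so leaving them out lowers the spread within a time. The counts and p-values of that fit are therefore descriptions and not tests of equal standing.

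With time of day 430 of the 10129 genes tested changed (4.25%; F test over the 4 times in limma, Benjamini-Hochberg adjusted p under 0.05), and 1985 had an unadjusted p under 0.05. Most peaked in the dark phase or at its start: 173 genes were highest at ZT12 (1.71% of genes tested) and 143 at ZT18 (1.41%), against 59 at ZT0 (0.582%) and 55 at ZT6 (0.543%). The median ratio of the highest to the lowest time was 1.81-fold on the FPKM + 1 scale, and 159 genes reached 2-fold. In 241 of the 430 all 3 libraries of the peak time lay above the other 9, a pattern that 776 of all genes tested showed (7.66%). Genes highest at ZT12 were mostly lowest at ZT0 (117 of 173), and those highest at ZT0 mostly lowest at ZT12 (48 of 59). With values as deposited, without scaling, 94 genes peaked at ZT0, 107 at ZT12 and 249 at ZT18. With no filter on low values ZT18 also held more peaks than ZT12, with 53, 37, 117 and 163 over the 4 times, ZT0 to ZT18. Without ZT0 replicate 1 and ZT6 replicate 3, the test called 1119 of 10031 genes (11.2%), 419 of them among the 430, with 176, 352, 349 and 242 peaks at ZT0, ZT6, ZT12 and ZT18. Leaving out 1 library gave from 182 calls (without ZT12 replicate 3) to 711 (without ZT6 replicate 3).

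**Figure D1:**
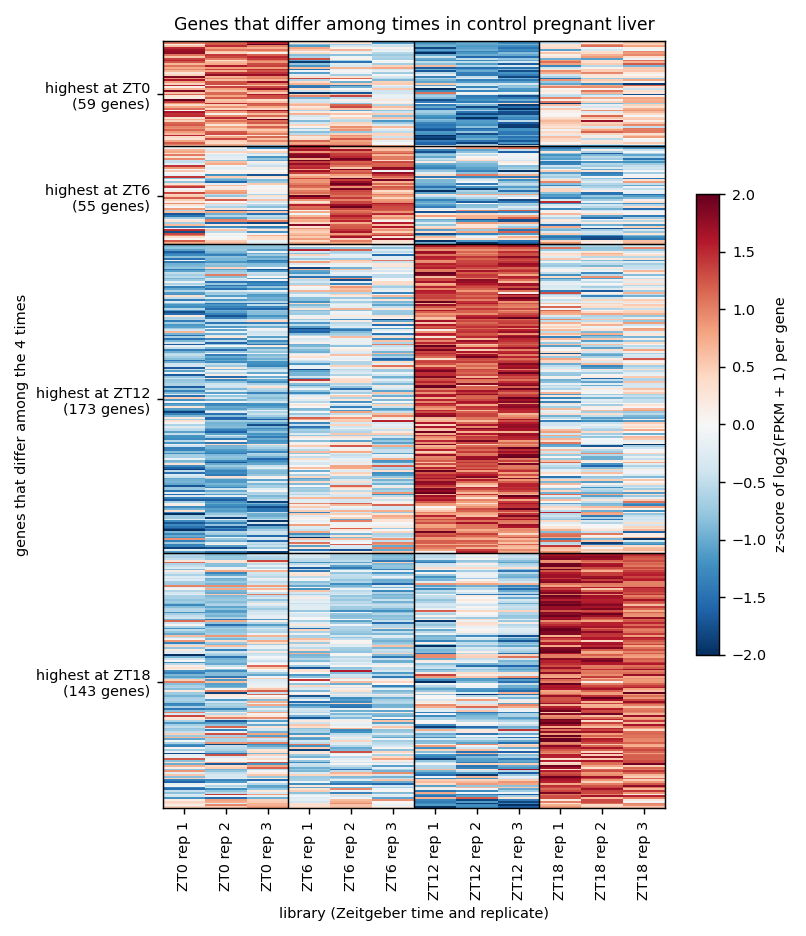
Heat map of the 430 genes that changed with time of day, 1 row per gene and 1 column per library, as z-scores of log2(FPKM + 1) and grouped by the time of the highest mean. The 173 genes highest at ZT12 and the 143 highest at ZT18 make the largest blocks, and rows highest at ZT0 are mostly lowest at ZT12.

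The clock itself kept a clear daily order. Of its 19 genes 18 were tested, 15 changed with time, and time explained a median of 85.6% of their variance, against 37.8% over all genes. Of the activator genes, Arntl and Npas2 were high at ZT18 and ZT0 and Clock did not pass the test. Among the others, the REV-ERB genes were high at ZT6, the Period and PAR bZIP genes around ZT12, and Cry1 at ZT18. The 15 had 2, 2, 8 and 3 peaks at ZT0, ZT6, ZT12 and ZT18, and 2, 2, 7 and 4 with values as deposited. The count was 13 without ZT0 replicate 3 and 16 without ZT6 replicate 3.

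Arntl, the activator that the loop cannot run without, was at 7.73, 7.25 and 6.76 FPKM at ZT0, 0.874, 1.04 and 2.29 at ZT6, 0.806, 0.981 and 0.534 at ZT12 and 6.54, 7.72 and 7.85 at ZT18. Its ZT0 and ZT18 libraries all lay above its ZT6 and ZT12 libraries, with a 4.73-fold range on the FPKM + 1 scale (limma, adjusted p = 9.78e-05). Npas2, an alternative partner of ARNTL, was at 1.38, 1.74 and 1.5 FPKM at ZT0, 0.0805, 0.0863 and 0.128 at ZT6, 0.0121, 0.0239 and 0.00646 at ZT12 and 0.597, 1.03 and 1.28 at ZT18 (adjusted p = 0.000275), and all 3 ZT0 libraries were above the rest. Clock, the usual partner, averaged 5.06 ± 0.16, 3 ± 1.4, 2.24 ± 0.17 and 3.28 ± 1.6 FPKM over the 4 times, ZT0 to ZT18 (SD, n = 3; adjusted p = 0.241). Its ZT0 libraries lay above the other 9, which overlapped one another.

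Per2, a repressor that feeds back on ARNTL, was at 0.373, 0.992 and 1.03 FPKM at ZT0, 1.25, 1.26 and 2.18 at ZT6, 8.93, 6.86 and 8.1 at ZT12 and 4.3, 3.09 and 3.55 at ZT18. The 3 ZT12 libraries lay above all others, and the lowest values were at ZT0 (adjusted p = 0.000237). Its relatives Per1 (6.41 to 9.09 FPKM at ZT12, 1.59 to 4.91 at the other times; adjusted p = 0.00671) and Per3 (5 to 7.47 against 0.238 to 4.6; adjusted p = 0.00171) had the same order of peak and trough. Ciart, a further repressor of the activators, was at 0.0619, 0.153 and 0.16 FPKM at ZT0, 1.07, 1.37 and 0.643 at ZT6, 8.29, 7.21 and 8.59 at ZT12 and 0.282, 0.365 and 0.717 at ZT18. This was the smallest p of all genes (adjusted p = 1.02e-05), with an 8.02-fold range on the FPKM + 1 scale. Cry1, the cryptochrome of the late phase, was at 3.3, 3.73 and 2.63 FPKM at ZT0, 0.772, 1.08 and 2.03 at ZT6, 5.54, 5.64 and 5.24 at ZT12 and 9.71, 11.1 and 11.2 at ZT18, so that all 3 ZT18 libraries lay above the others (adjusted p = 0.000207). Cry2 ran from 3.82 ± 0.38 FPKM at ZT0 to 7.98 ± 1.7 at ZT12 (SD, n = 3; adjusted p = 0.0119), and its call ended without 1 of the 12 libraries (adjusted p up to 0.0519).

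Nr1d1, the REV-ERB alpha receptor that represses Arntl, was at 9.36, 10.5 and 1.18 FPKM at ZT0, 33.7, 25 and 12.2 at ZT6, 3.05, 3.09 and 3.7 at ZT12 and 0.483, 0.266 and 0.4 at ZT18. The ZT6 libraries were the 3 highest and the ZT18 libraries the 3 lowest, a 16.5-fold range on the FPKM + 1 scale (adjusted p = 0.00746). Nr1d2, REV-ERB beta, was high at both ZT6 and ZT12 (12.8 ± 4.9 and 11.3 ± 3.3 FPKM) and low at ZT18 (2.13 ± 0.47; SD, n = 3; adjusted p = 0.0096). Rora, for a receptor that competes with them, averaged 4.76 ± 1.1 FPKM at ZT0 and 3.76 ± 1.2 at ZT6 (SD, n = 3; adjusted p = 0.868).

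Dbp, the output activator, was at 0.116, 0.695 and 0.1 FPKM at ZT0, 31.6, 20.4 and 2.2 at ZT6, 13.2, 13.5 and 15.5 at ZT12 and 0.707, 0.681 and 0.702 at ZT18. Its ZT12 libraries agreed closely, while ZT6 held 2 libraries above every ZT12 value and replicate 3 between the ZT12 and the ZT18 values (adjusted p = 0.00995). On the log scale its mean was highest at ZT12, on the FPKM scale at ZT6 (18.1 ± 15 against 14.1 ± 1.3; SD, n = 3). Its log mean was highest at ZT6 too without ZT0 replicate 1 and ZT6 replicate 3 (adjusted p = 1.70e-05). Tef, another PAR bZIP activator, was at 6.19, 7.96 and 5.02 FPKM at ZT0, 26.7, 25.6 and 18.2 at ZT6, 33.1, 34.1 and 40.7 at ZT12 and 16.7, 13.7 and 13.7 at ZT18, and every ZT0 library lay below the rest (adjusted p = 0.000229). Hlf, the third, was at 7.24 ± 1.4 FPKM at ZT12 and 2.97 ± 0.64 at ZT0 (SD, n = 3; adjusted p = 0.0165). Nfil3, which represses through the same D-boxes, ran the other way, with 12.9 ± 1.8 FPKM at ZT0 and 4.98 ± 2.5 at ZT6 (adjusted p = 0.0214). The calls of Hlf and Nfil3 each ended in 4 of 12 fits with 1 library left out (adjusted p up to 0.0636 and 0.0616). Bhlhe40, a helix-loop-helix repressor, was at 29.1 ± 1.4 FPKM at ZT12 and 13 ± 4.3 at ZT0 (adjusted p = 0.147, and 0.0275 without ZT0 replicate 1 and ZT6 replicate 3), and its relative Bhlhe41 was below the filter.

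A 24 h cosine fitted to the 12 values of a gene gave these peak times with their SE. Nr1d1 peaked at 5.46 ± 0.55 h, Nr1d2 at 8.06 ± 0.61 h and Dbp at 9.36 ± 0.58 h. Tef (11 ± 0.34 h), Hlf (11.1 ± 0.6 h), Per3 (11.2 ± 0.42 h) and Ciart (11.4 ± 0.57 h) followed close together. Per1 (12.6 ± 0.52 h), Cry2 (13 ± 0.77 h) and Per2 (13.4 ± 0.33 h) came next, then Cry1 (17 ± 0.27 h). Nfil3 (20.5 ± 0.75 h), Arntl (21.4 ± 0.29 h) and Npas2 (21.9 ± 0.31 h) closed the cycle. With samples 6 h apart, peaks nearer to each other than their SE cannot be ordered, and the order of the other neighbouring peaks was not tested.

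**Figure D2:**
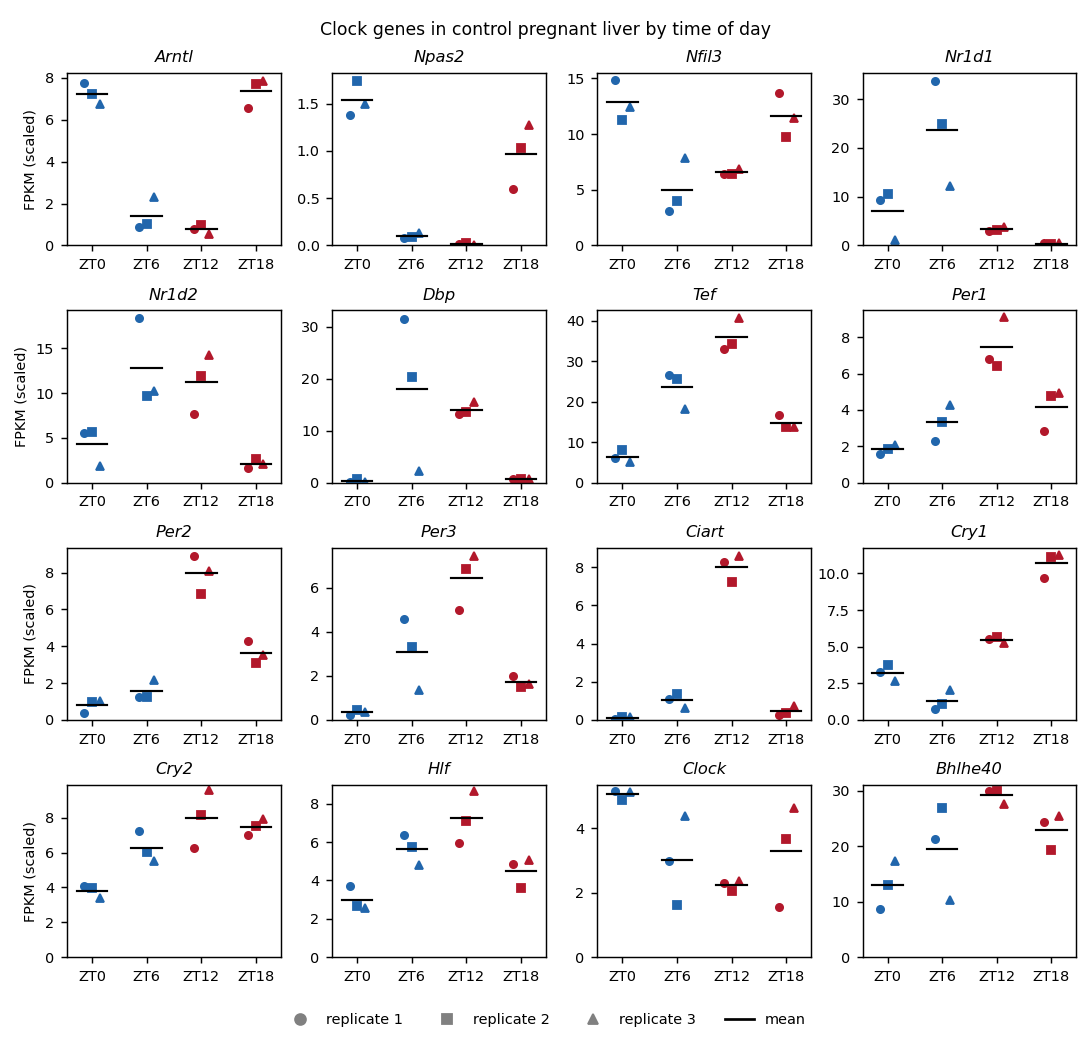
Scaled FPKM of 16 clock genes at ZT0, ZT6, ZT12 and ZT18 on axes from 0, with 1 point per library (circle, square and triangle for replicates 1, 2 and 3; blue for ZT0 and ZT6, red for ZT12 and ZT18) and a bar at the mean of 3. Arntl, Npas2 and Nfil3 are high at ZT0 and ZT18, Nr1d1 at ZT6, the Period genes and Ciart at ZT12 and Cry1 at ZT18, and ZT6 replicate 3 lies nearest to ZT0 in Nr1d1, Dbp, Tef and Per3.

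The promoters of 3 clock genes are shown as examples that hold elements through which the loop is known to work. Those of Dbp, Nr1d1, Arntl and Npas2 held no E-box, D-box or RORE core in the same windows. The sequences are the 250 bases before the start in RefSeq (GRCm38.p6), 5′ to 3′ on the strand of the gene, with capitals for an E-box (CACGTG) in Ciart (chr3:95882229-95882478, minus strand) and Cry1 (chr10:85185055-85185304, minus strand) and for a D-box (TTATGTAA) in Per3 (chr4:151044666-151044915, minus strand).
Ciart: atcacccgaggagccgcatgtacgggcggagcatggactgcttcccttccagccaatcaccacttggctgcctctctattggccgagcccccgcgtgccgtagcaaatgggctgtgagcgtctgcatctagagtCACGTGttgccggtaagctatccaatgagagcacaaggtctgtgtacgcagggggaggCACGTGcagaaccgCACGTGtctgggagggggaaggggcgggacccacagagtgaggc
Cry1: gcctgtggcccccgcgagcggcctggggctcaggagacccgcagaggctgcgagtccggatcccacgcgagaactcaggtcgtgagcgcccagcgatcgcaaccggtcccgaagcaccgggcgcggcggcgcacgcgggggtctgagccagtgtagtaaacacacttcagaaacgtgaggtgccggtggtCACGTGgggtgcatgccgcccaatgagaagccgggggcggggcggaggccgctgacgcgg
Per3: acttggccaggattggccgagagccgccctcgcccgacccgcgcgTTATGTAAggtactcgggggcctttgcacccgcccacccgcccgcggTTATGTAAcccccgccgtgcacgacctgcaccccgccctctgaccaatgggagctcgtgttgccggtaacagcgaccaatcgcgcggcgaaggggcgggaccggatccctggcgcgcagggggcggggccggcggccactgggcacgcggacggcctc
Ciart holds 3 E-boxes, which begin 116, 58 and 44 bases before the start, Cry1 holds 1 at 60 bases, and Per3 holds 2 D-boxes at 205 and 158 bases. Over both strands, an E-box lay in the promoters of 802 of 7784 genes tested that matched the RefSeq table (10.3%). The share was 11.6%, 13.95%, 12.98% and 13.8% for genes highest at ZT0, ZT6, ZT12 and ZT18. D-boxes were in 0.707% of all promoters and in 4 of 131 promoters of ZT12 genes (3.05%), and the RORE core TAGGTCA in 2.30% of all and 4 of 43 promoters of ZT0 genes (9.30%). Of the 13 clock genes that changed and matched the table, 4 held an E-box (30.8%), 1 a D-box (7.69%) and 1 the RORE core (7.69%). The motifs were chosen after the values were seen, and a match in these windows is a description of the letters only.

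At ZT0, when the lights come on, few genes stood high: 27 were above the mean of the other 3 times (0.267% of genes tested) and 73 below it (0.721%; limma contrast, adjusted p under 0.05). The split was 25 against 39 with values as deposited, and 97 (0.967%) against 187 (1.86%) without ZT0 replicate 1 and ZT6 replicate 3. Genes highest at ZT0 included the choline kinase Chka, the mitochondrial unfoldase Clpx, the bile salt pump Abcb11 and Npas2. For 36 of the 59 genes highest at ZT0, ZT18 was the next highest time.

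Ndrg1, a stress- and differentiation-linked gene, had the largest difference, at 16.1, 17.9 and 23.7 FPKM at ZT0, 8.17, 8.32 and 2.01 at ZT6, 1.85, 2.23 and 1.7 at ZT12 and 4.06, 7.96 and 10.3 at ZT18. All 3 ZT0 libraries were above the other 9 (log2 difference 1.92 ± 0.33 SE, adjusted p = 0.0248). Loxl4, a lysyl oxidase of the matrix, was at 2.38, 7.42 and 14.6 FPKM at ZT0 and 0.207 to 5.35 at the other times, so that its groups overlapped (log2 difference 1.84 ± 0.35, adjusted p = 0.0387). Chka, the first enzyme of phosphatidylcholine synthesis from choline, was at 25.7, 51.6 and 35.7 FPKM at ZT0, 6.56, 12 and 11.5 at ZT6, 7.4, 6.46 and 5.88 at ZT12 and 20.8, 38.9 and 30.4 at ZT18. Its ZT0 and ZT18 libraries all lay above its ZT6 and ZT12 libraries (log2 difference of ZT0 1.47 ± 0.23, adjusted p = 0.0167). Clpx, the unfoldase of the mitochondrial ClpXP protease, was at 122, 60.7 and 67.2 FPKM at ZT0, 44, 36.1 and 40.3 at ZT6, 16.6, 19 and 18.2 at ZT12 and 45.3, 52.3 and 74.8 at ZT18. ZT0 replicate 1 was far above its group, and the lowest 3 libraries were those of ZT12 (log2 difference of ZT0 1.18 ± 0.20, adjusted p = 0.0238; of ZT12 -1.60 ± 0.20, adjusted p = 0.00159). The log2 difference of ZT0 was 0.87 without ZT0 replicate 1 and ZT6 replicate 3 (adjusted p = 0.0296). Spon2, a secreted matrix protein, and Tymp, thymidine phosphorylase, averaged 9.97 ± 3.7 and 15.8 ± 3.2 FPKM at ZT0, and 0.8 ± 0.47 and 4.05 ± 0.34 at ZT12 (SD, n = 3; adjusted p of ZT0 0.0167 and 0.0101). Abcb11, which exports bile salts, was at 115, 119 and 114 FPKM at ZT0, 97.6, 135 and 110.4 at ZT6, 68, 54.1 and 59 at ZT12 and 87.2, 83.3 and 99.5 at ZT18. It stood apart by its low ZT12 values, without overlap (adjusted p = 0.00675). It was the 1 gene of 20 for bile acids to change, near the 4.25% of all genes. Without ZT0 replicate 1 and ZT6 replicate 3, 9 of the 20 changed, 6 of them highest at ZT6, where 11.2% of all genes changed. Stat5b, which relays growth hormone, was the 1 of 14 in that axis to change, where 4.25% of all genes changed. It was at 9.36 ± 0.72 FPKM at ZT0 and 5.8 ± 0.35 at ZT12 (SD, n = 3; adjusted p = 0.0352), a call that ended in 7 of 12 fits with 1 library left out (adjusted p up to 0.145). Its highest time was ZT18 without ZT0 replicate 1 and ZT6 replicate 3.

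At ZT6, the middle of the light phase, the contrast with the other times was small: 14 genes were higher (0.138%) and 13 lower (0.128%). Without ZT0 replicate 1 the contrast called 185 genes in place of 27, and without ZT6 replicate 1 it called 5. With both ZT0 replicate 1 and ZT6 replicate 3 left out it called 262 higher (2.61%) and 142 lower (1.42%). The genes that stood high besides Nr1d1 were a stress-response factor, a growth and lysosome regulator, a drug-metabolizing oxidase and the co-receptor of liver FGF hormones. Genes of autophagy, the recycling of cell contents by lysosomes, changed in 2 of 15 cases, both highest at ZT6, where 4.25% of all genes changed and 0.543% did with ZT6 highest.

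Atf5, a transcription factor of the mitochondrial stress response, was at 143, 117 and 119.5 FPKM at ZT0, 150, 168 and 164 at ZT6, 36, 59.6 and 38.4 at ZT12 and 104, 65.7 and 91.9 at ZT18. Its 3 ZT6 libraries were the highest and its 3 ZT12 libraries the lowest (log2 difference of ZT6 1.03 ± 0.17 SE, adjusted p = 0.0351). Aox3, an aldehyde oxidase, was at 38.6, 34.8 and 33.2 FPKM at ZT6 and 10.7 to 23.6 at the other times, without overlap (log2 difference 1.01 ± 0.14, adjusted p = 0.0221). Klb, the beta-klotho co-receptor through which FGF hormones act on liver, was at 11, 14.8 and 14.1 FPKM at ZT6 and 6.32 to 8.9 elsewhere, again without overlap (log2 difference 0.73 ± 0.10, adjusted p = 0.0221). Flcn, folliculin of the lysosomal nutrient-sensing machinery, averaged 8.54 ± 1.3 FPKM at ZT6 and 3.58 ± 0.36 at ZT18 (SD, n = 3; adjusted p of ZT6 0.0346). The apoptotic caspase gene Casp6, the focal adhesion gene Tns2 and the chromatin reader gene Jade1 averaged 13.3 ± 3.2, 10.2 ± 0.35 and 6.12 ± 0.62 FPKM at ZT6, and 4.58 ± 0.31, 4.19 ± 0.21 and 2.78 ± 0.41 at ZT18, the lowest time of each (SD, n = 3; adjusted p of ZT6 0.0478, 0.0221 and 0.0323). Map1lc3b, whose protein coats autophagosomes, was at 55.4, 44.8 and 43.8 FPKM at ZT0, 60, 66.5 and 63.2 at ZT6, 53.4, 59.1 and 59.9 at ZT12 and 38.9, 36.4 and 35.7 at ZT18. Its ZT18 libraries were the 3 lowest (adjusted p = 0.00958). Ulk1, the kinase that starts autophagy, averaged 18 ± 4.1 FPKM at ZT6 and 7.53 ± 1.1 at ZT18 (SD, n = 3; adjusted p = 0.0438). Its call ended in 10 of 12 fits with 1 library left out (adjusted p up to 0.124), with values as deposited and with no filter, settings in which the autophagy list held 1 call. Fgg, the fibrinogen gamma chain, was the acute phase gene highest at ZT6 (adjusted p = 0.0446), with all ZT6 libraries above all ZT12 libraries (2201 to 2562 against 1510 to 1620 FPKM), a call that ended in 9 of 12 fits with 1 library left out (adjusted p up to 0.109).

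At ZT12, as the lights go off, 212 genes stood above the mean of the other times (2.09%) and 148 below it (1.46%). With values as deposited the split was 135 against 325, with a shift of the median gene by -0.08 on the log2 scale, so that the count of higher genes depends on the scaling. Among the genes that rose were targets of glucocorticoid, the first enzyme of heme synthesis, the electron donor of cytochrome P450, and some genes of NAD salvage, amino acid breakdown and glucose handling. Of 13 genes for the glucocorticoid receptor and its targets 7 changed, and all 7 were highest at ZT12, against a background of 1.71%. Their count was 7 under each scaling, 4 without ZT12 replicate 2 and 9 without ZT0 replicate 1. Per1, given above as a clock gene, was among the 7 and is counted in both lists.

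Tsc22d3, the glucocorticoid-induced leucine zipper, was at 15.1, 18 and 14.3 FPKM at ZT0, 15.3, 21.7 and 22 at ZT6, 46.4, 64 and 58.1 at ZT12 and 28.5, 25.8 and 38.1 at ZT18. The 3 ZT12 libraries lay above the other 9 (adjusted p = 0.00134). The metallothioneins Mt2 and Mt1, which bind zinc and copper, averaged 869 ± 98 and 1503 ± 281 FPKM at ZT12, and 278 ± 61 and 446 ± 118 at ZT18, their lowest time (SD, n = 3; adjusted p = 0.00303 and 0.00464). Fkbp5, a co-chaperone that restrains the receptor, was at 27, 23.8 and 19.3 FPKM at ZT0, 29.5, 36.4 and 45.4 at ZT6, 40.8, 46.4 and 54.8 at ZT12 and 25.7, 19.5 and 24.4 at ZT18 (adjusted p = 0.0173). Its ZT6 replicate 3 lay within the ZT12 range, so the groups overlapped. Dusp1, a phosphatase that switches off MAP kinases, and the transcription factor gene Zbtb16 averaged 14.6 ± 3.9 and 4.48 ± 0.79 FPKM at ZT12 and 3.24 ± 1.3 and 1.63 ± 0.72 at ZT6 (SD, n = 3; adjusted p = 0.0116 and 0.0314). Nr3c1, the receptor gene itself, was at 9.61 ± 1.5 FPKM at ZT12 and 8.29 ± 1.6 at ZT0 (adjusted p = 0.743), and Tat, a classical target, was at 215, 717 and 1069 FPKM at ZT0, 199.7, 367 and 333 at ZT6, 1202, 842 and 963 at ZT12 and 572, 663 and 682 at ZT18. All ZT6 libraries of Tat lay below its ZT18 libraries, and these below its ZT12 libraries, while its ZT0 libraries spread across the other times. Its adjusted p was 0.161, or 0.0102 without ZT0 replicate 1 and ZT6 replicate 3. The call of Zbtb16 ended in 8 of 12 fits with 1 library left out (adjusted p up to 0.136). Nr3c1, Tat, Fkbp5, Dusp1 and Zbtb16 were chosen for naming after their values were seen.

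Alas1, the first and rate-limiting enzyme of heme synthesis, was at 37.3, 47.8 and 52 FPKM at ZT0, 58.2, 72.9 and 98.2 at ZT6, 408, 235 and 304 at ZT12 and 157, 195 and 115 at ZT18. All ZT12 libraries were above all others and the ZT0 libraries were the 3 lowest, a 6.68-fold range (adjusted p = 0.000768). Of 11 heme genes it was the 1 that changed and the 1 with an unadjusted p under 0.05, where 4.25% of all genes changed. Por, the reductase that feeds electrons to every microsomal P450, was at 72.5, 79.3 and 76.2 FPKM at ZT0, 102, 112 and 138 at ZT6, 274, 250.2 and 304 at ZT12 and 84.7, 91.8 and 85.2 at ZT18. The ZT12 libraries stood clear of the rest (adjusted p = 9.78e-05). Of 23 genes for drug metabolism by the Cyp2 and Cyp3 families and their helpers 3 changed, all highest at ZT12, where 4.25% of all genes changed and 1.71% did with ZT12 highest. These were Por, Nr1i2, the pregnane X receptor (32.3 to 34.7 FPKM at ZT12 and 12.7 to 23.9 elsewhere; adjusted p = 0.0134), and Cyp2a5, a P450 that oxidizes coumarin. Cyp2a5 was at 176, 163 and 267 FPKM at ZT0, 680.4, 425 and 137 at ZT6, 1096, 1138 and 1316 at ZT12 and 589.6, 731 and 617 at ZT18 (adjusted p = 0.0256), a call that ended in 7 of 12 fits with 1 library left out (adjusted p up to 0.0886). The list held 1 call without ZT12 replicate 2. It shares most of its sequence with Cyp2a4, which was at 642 to 683 FPKM at ZT0 and 1332 to 2196 at ZT12, so the split of reads between the pair is uncertain. Cyp3a11, a main drug-metabolizing P450, was at 198 to 771 FPKM at ZT0 and 628 to 1151 at ZT18 (adjusted p = 0.537; named after its values were seen).

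Usp2, a deubiquitinase of the clock output, was at 0.34, 1.47 and 3.73 FPKM at ZT0, 2.84, 2.03 and 2.35 at ZT6, 19.3, 11.8 and 15.6 at ZT12 and 3.58, 5 and 2.94 at ZT18 (log2 difference of ZT12 2.25 ± 0.29 SE, adjusted p = 0.00206). Nrg4, a secreted ligand of ErbB receptors, was at 1.77, 1.78 and 1.41 FPKM at ZT0, 2.76, 2.85 and 2.88 at ZT6, 9.7, 8.81 and 11 at ZT12 and 2.84, 2.22 and 2.22 at ZT18. The ZT12 libraries were the 3 highest and the ZT0 libraries the 3 lowest (log2 difference 1.73 ± 0.09, adjusted p = 1.68e-06). Tsku, a secreted proteoglycan made by liver, had the largest difference at ZT12, at 126, 68.7 and 83.3 FPKM against 3.08 to 30.5 at the other times. Its ZT0 libraries spread from 3.08 to 25.3 FPKM, and its call among the 4 times ended in 8 of 12 fits with 1 library left out (adjusted p = 0.0298, up to 0.111). Eif3j1, a subunit of a translation initiation factor, was at 0.0265 to 0.0327 FPKM in all 6 libraries of ZT0 and ZT6, at 6.51, 6.39 and 6.93 at ZT12 and at 5.58, 0.026 and 4.91 at ZT18. Its near-identical copy Eif3j2 was at 9.19 FPKM in ZT18 replicate 1 and at 20.9 in ZT18 replicate 2, the reverse of Eif3j1, so the split of reads between the pair is uncertain.

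Amino acid breakdown changed in 4 of 28 genes, all highest at ZT12, against 4.25% of all genes that changed and 1.71% with ZT12 highest. Prodh, which starts proline breakdown, was at 21.6, 21.7 and 28.2 FPKM at ZT0, 24.2, 32.8 and 22.8 at ZT6, 70.5, 58.6 and 53.3 at ZT12 and 35.2, 38.7 and 43.1 at ZT18 (adjusted p = 0.00294). Gpt2, a mitochondrial alanine aminotransferase, was at 99.2, 101 and 107 FPKM at ZT12 and 49 to 66.9 at other times (adjusted p = 0.00346). For Asl, the argininosuccinate lyase of the urea cycle, the ranges were 372 to 451 and 161 to 309 FPKM (adjusted p = 0.00731), and for Sds, serine dehydratase, 100.3 to 149 and 32.2 to 62.5 (adjusted p = 0.024). None of the 4 had overlap between ZT12 and the other times, and the call of Sds ended in 5 of 12 fits with 1 library left out (adjusted p up to 0.108). Cps1, the entry enzyme of the urea cycle, was at 596 ± 71 FPKM at ZT12 and 520.3 ± 73 at ZT0 (SD, n = 3; adjusted p = 0.815; named after its values were seen).

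NAD, glucose and chaperone lists added genes highest at ZT12, again against 4.25% of all genes called and 1.71% with ZT12 highest. For NAD, 3 of 14 changed: Nampt, the rate-limiting enzyme of NAD salvage (18.8 to 29.9 FPKM at ZT12 and 6.55 to 15.7 elsewhere; adjusted p = 0.0257), the riboside kinase gene Nmrk1 (31 to 35.7 and 11.4 to 25.9; adjusted p = 0.0124) and the nicotinamide methyltransferase gene Nnmt (169.7 to 291 and 78.3 to 190.2; adjusted p = 0.0298), whose groups overlapped. The calls of Nampt and Nnmt ended in 5 and 6 of 12 fits with 1 library left out (adjusted p up to 0.112 and 0.095). Nnmt had an adjusted p of 0.0522 without ZT0 replicate 1 and ZT6 replicate 3. For glucose and glycogen, 5 of 21 changed, 4 of them highest at ZT12. Gys2, the liver glycogen synthase, was at 42.7, 25.6 and 26.2 FPKM at ZT0, 65.6, 58.6 and 40.1 at ZT6, 76.9, 98.7 and 112 at ZT12 and 44.5, 44.8 and 39.1 at ZT18 (adjusted p = 0.0104), with no overlap between ZT12 and the rest. Slc37a4, which carries glucose 6-phosphate into the endoplasmic reticulum, and Slc2a2, the GLUT2 glucose carrier, averaged 103 ± 9.9 and 85.2 ± 6.7 FPKM at ZT12, and 46.6 ± 18 and 46.3 ± 16 at ZT0 (SD, n = 3; adjusted p = 0.0286 and 0.0329), calls that ended in 7 and 9 of 12 fits with 1 library left out (adjusted p up to 0.112 and 0.0946). Slc2a2 was highest at ZT6 without ZT0 replicate 1 and ZT6 replicate 3. Ppp1r3c, which targets a phosphatase to glycogen, ran the other way, at 26.6, 27.2 and 65.3 FPKM at ZT0, 13.8, 14.1 and 6.24 at ZT6, 8.08, 11.1 and 10.5 at ZT12 and 45.4, 56.9 and 64.5 at ZT18 (adjusted p = 0.00452). Its ZT18 libraries were above every ZT6 and ZT12 library and overlapped those of ZT0. For chaperones, 2 of 18 heat shock genes changed, Hspa8 (708 to 807 FPKM at ZT12 and 335 to 559.8 elsewhere; adjusted p = 0.0453) and its cofactor gene Dnaja1 (48.7 to 51 and 20.7 to 34.7; adjusted p = 0.0437). Their calls ended in 9 and 8 of 12 fits with 1 library left out (adjusted p up to 0.182 and 0.158), and without ZT6 replicate 1 the list held 0. With values as deposited the heat shock list held 1 call, with its peak at ZT18, and the glucose list 2. The glucose list held 1 call without ZT12 replicate 2, and the NAD list 1 without ZT0 replicate 2.

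**Figure D3:**
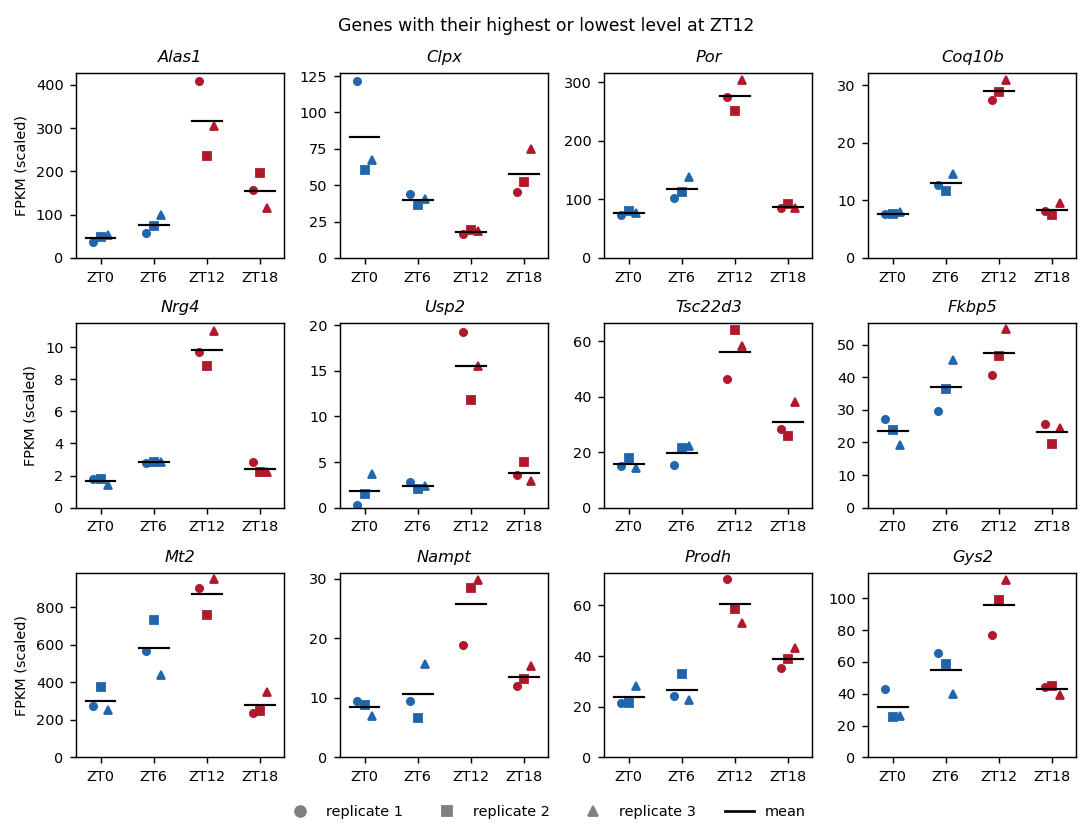
Scaled FPKM of 12 genes with an extreme at ZT12, 1 point per library (circle, square and triangle for replicates 1, 2 and 3; blue for ZT0 and ZT6, red for ZT12 and ZT18) and a bar at the mean of 3, on axes from 0. All panels but Clpx are highest at ZT12 and Clpx is lowest there, and the 3 ZT12 points of Por, Nrg4 and Alas1 lie above all others.

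At ZT18, the middle of the dark phase, the machinery of DNA synthesis stood out. In the contrast with the other times 128 genes were higher (1.26%) and 34 lower (0.336%), and 295 and 19 with values as deposited. Of 62 genes for copying DNA, taken as 4 complete sets after the values of the ZT18 genes had been seen, 56 were tested, 35 changed with time, and 34 of these were highest at ZT18, where the background is 1.41%. They made up 23.8% of the 143 genes highest at ZT18, and in 33 of the 34 all 3 ZT18 libraries lay above the other 9. Of the 56, 6 reach the filter of 1 FPKM at ZT18 only, so that they had to differ to be tested: Uhrf1, Pole, Cdc45, Chaf1a, Pold1 and Asf1b. With no filter, 31 of all 62 changed, and all 31 were highest at ZT18. In that setting 370 of 17732 genes changed, 163 of them highest at ZT18. The sets were chosen because their genes led the ZT18 list, so the count is a description. A shorter list of DNA replication and cell cycle genes, taken over from earlier work on these data, changed in 11 of 17 cases, 10 of them highest at ZT18. It shares genes with the sets, among them Mcm2, Mcm3, Mcm5 and Mcm6, so the 2 counts are not separate. The counts below for single sets and for the E2F and Rb family stand against 4.25% of all genes that changed and 1.41% with ZT18 highest.

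Mcm6, a subunit of the MCM2-7 ring that unwinds DNA, was at 1.37, 0.654 and 2.37 FPKM at ZT0, 2.33, 1.3 and 1.09 at ZT6, 1.47, 2.94 and 1.36 at ZT12 and 13.6, 13.4 and 13.3 at ZT18. The ZT18 libraries agreed closely and lay far above the other 9 (log2 difference 2.49 ± 0.22 SE, adjusted p = 0.000174). Mcm5, another subunit of the ring, was at 0.602, 0.299 and 0.824 FPKM at ZT0, 0.941, 0.513 and 0.239 at ZT6, 0.65, 1.62 and 0.668 at ZT12 and 8.14, 8.35 and 6.9 at ZT18 (log2 difference 2.40 ± 0.17, adjusted p = 8.16e-05). Mcm3, Mcm2, Mcm4 and Mcm7 averaged 6.63 ± 1.5, 5.1 ± 1.2, 3.99 ± 1 and 12.8 ± 1.4 FPKM at ZT18, and at most 1.57, 1.22, 1.31 and 4.38 at any other time (SD, n = 3). All 6 subunits of the ring changed, and in each the 3 ZT18 libraries were the highest. In the whole set for loading and activating the helicase 11 of 18 changed, among them the loader gene Cdt1 (2.14 to 4.35 FPKM at ZT18 and 0.54 to 1.27 elsewhere), Cdc45 (1.19 to 2.03 and 0.247 to 0.64) and Gmnn, the inhibitor of Cdt1, which was low at ZT0 (3.07 to 3.93 FPKM) and at ZT18 overlapped ZT6 and ZT12. The origin recognition genes Orc2, Orc3, Orc4 and Orc5 did not pass the test, while Orc6 did (adjusted p = 0.00782).

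The enzymes of the fork rose with the helicase, in 12 of 21 genes. Pcna, the sliding clamp, was at 15.2, 15.7 and 15.2 FPKM at ZT0, 18.9, 15.5 and 17.6 at ZT6, 15.2, 22.6 and 18.3 at ZT12 and 38.3, 38.3 and 40 at ZT18. Its 3 ZT18 libraries lay above the other 9 (adjusted p = 0.000883). Pole, the leading-strand polymerase, was at 1.31, 1.24 and 1.13 FPKM at ZT18 and 0.119 to 0.373 elsewhere. It reaches the filter at ZT18 only, and with no filter its adjusted p was 0.000121. The primase gene Prim1 was at 4.8, 6.25 and 5.14 and 0.894 to 2.14 (adjusted p = 0.000933). Fen1 and Lig1, which trim and seal Okazaki fragments, averaged 4.26 ± 0.69 and 4.01 ± 0.42 FPKM at ZT18 and 1.35 ± 0.095 and 0.819 ± 0.42 at ZT6 (SD, n = 3; adjusted p = 0.00326 and 0.00323). Nucleotide supply changed in 5 of 8 genes. Both subunits of ribonucleotide reductase were among them: Rrm1 at 2.04, 1.36 and 1.93 FPKM at ZT0, 2.07, 1.95 and 1.76 at ZT6, 1.64, 2.03 and 1.75 at ZT12 and 6.35, 5.93 and 4.83 at ZT18, and Rrm2 at 8.09, 7.24 and 7.8 at ZT18 and 1.06 to 3.49 elsewhere (adjusted p = 0.000362 and 0.00926). Tk1, thymidine kinase, was the 1 replication gene that changed with another peak, at 27.6 ± 6 FPKM at ZT12 and 25.2 ± 6.2 at ZT18 (SD, n = 3; adjusted p = 0.0361), and with values as deposited all 6 genes called in this set were highest at ZT18.

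Genes that rebuild chromatin behind the fork changed in 7 of 9 cases, all highest at ZT18. Uhrf1, which carries DNA methylation to the new strand, was at 0.167, 0.0859 and 0.182 FPKM at ZT0, 0.387, 0.154 and 0.0346 at ZT6, 0.23, 0.482 and 0.316 at ZT12 and 3.76, 3.8 and 2.53 at ZT18. It too reaches the filter at ZT18 only, and with no filter its adjusted p was 0.000389. Its partner gene Dnmt1 was at 2.91, 2.89 and 2.4 FPKM at ZT18 and 1.08 to 1.5 elsewhere (adjusted p = 0.00277). Chaf1a and Chaf1b of the histone chaperone CAF-1 averaged 2.16 ± 0.59 and 2.51 ± 0.27 FPKM at ZT18 and 0.288 ± 0.09 and 0.691 ± 0.48 at ZT0 (SD, n = 3; adjusted p = 0.00563 with no filter for Chaf1a, which reaches it at ZT18 only, and 0.0296 for Chaf1b). Of 11 E2F and Rb family genes, which govern entry into S phase, 2 changed, E2f1 (2.95 to 3.93 FPKM at ZT18 and 0.798 to 1.68 elsewhere; adjusted p = 0.00464) and its partner gene Tfdp1 (adjusted p = 0.0274). Ccne1, cyclin E1 of the G1 to S step, was at 1.05, 1.34 and 1.01 FPKM at ZT18 and 0.195 to 0.419 at ZT0. It reaches the filter at ZT18 only and had an adjusted p of 0.0101 with no filter. Wee1, the kinase that holds back mitosis and a known clock output, peaked at ZT12, at 0.943, 0.461 and 0.465 FPKM at ZT0, 2.49, 1.44 and 1.09 at ZT6, 3.14, 5.09 and 4.15 at ZT12 and 2.82, 2.56 and 1.66 at ZT18 (adjusted p = 0.00662). Cdkn1a, the p21 inhibitor, was at 22.4, 10.9 and 11.3 FPKM at ZT0, 2.13, 2.67 and 12.7 at ZT6, 1.63, 4.41 and 2.61 at ZT12 and 19, 19.7 and 21.8 at ZT18. Its ZT18 libraries lay above all ZT6 and ZT12 libraries and overlapped ZT0 (adjusted p = 0.0285). The calls of Cdkn1a, Tk1, Gmnn and Chaf1b ended in 6, 6, 7 and 8 of 12 fits with 1 library left out (adjusted p up to 0.0886, 0.102, 0.109 and 0.115).

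Of 8 mitosis genes tested, 7 had their highest mean at ZT18, as did 22.0% of all genes tested. Only 1 of the 8 changed, against 4.25% of all genes. It was Nek2, a centrosome kinase (1.63 to 1.9 FPKM at ZT18 and 0.315 to 2.13 elsewhere; adjusted p = 0.0384), a call that ended in 7 of 12 fits with 1 library left out (adjusted p up to 0.116). Cdk1, the mitotic kinase, was at 1.29, 0.261 and 0.769 FPKM at ZT0, 1.96, 0.568 and 0.467 at ZT6, 0.621, 0.621 and 0.661 at ZT12 and 2.14, 2.1 and 2.22 at ZT18. Its 3 ZT18 libraries were above the other 9, but it did not pass the test (adjusted p = 0.125, or 0.0334 without ZT0 replicate 1 and ZT6 replicate 3). Mki67, a marker of dividing cells, was at 0.423, 1.27 and 1.27 FPKM at ZT18 and 0.106 to 1.39 elsewhere (adjusted p = 0.431). Top2a, which untangles DNA before division, was at 1.02, 1.61 and 1.6 and 0.154 to 1.37 (adjusted p = 0.196). ZT6 replicate 1 had high values of all 3 (1.96 FPKM of Cdk1, 1.39 of Mki67, 1.37 of Top2a), above the other 2 libraries of its time. With no filter, none of 20 mitosis genes passed (limma; 4 at an unadjusted p under 0.05). The count was 5 of those tested without ZT0 replicate 1 and ZT6 replicate 3, where 11.2% of all genes changed. The difference between replication and mitosis genes was not tested. Of the genes named here for DNA synthesis and division, all but Mcm2, Mcm3, Mcm5, Mcm6, Pole, Rrm1 and Uhrf1 were chosen after their values were seen.

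The ZT18 count of replication genes was 28 to 38 under the other settings. It was 20, 21 and 22 without ZT18 replicate 1, 2 and 3, and 29 to 35 without any other library. Without a ZT18 library, genes that reach the filter in ZT18 libraries only are no longer tested. Only 6 replication genes are of that kind, so the fall from 34 was larger than their loss. Endothelial, Kupffer and lymphocyte markers, of cell types that could divide or enter the liver, summed to 82.7 to 89.6, 198 to 227 and 3.10 to 4.08 FPKM at ZT18, and to 62.7 to 90.04, 133 to 216 and 1.78 to 4.43 FPKM at the other times, and their part in the result was not tested. Of the 12 Kupffer markers 8 had their highest mean at ZT18, against 22.0% of all genes tested.

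**Figure D4:**
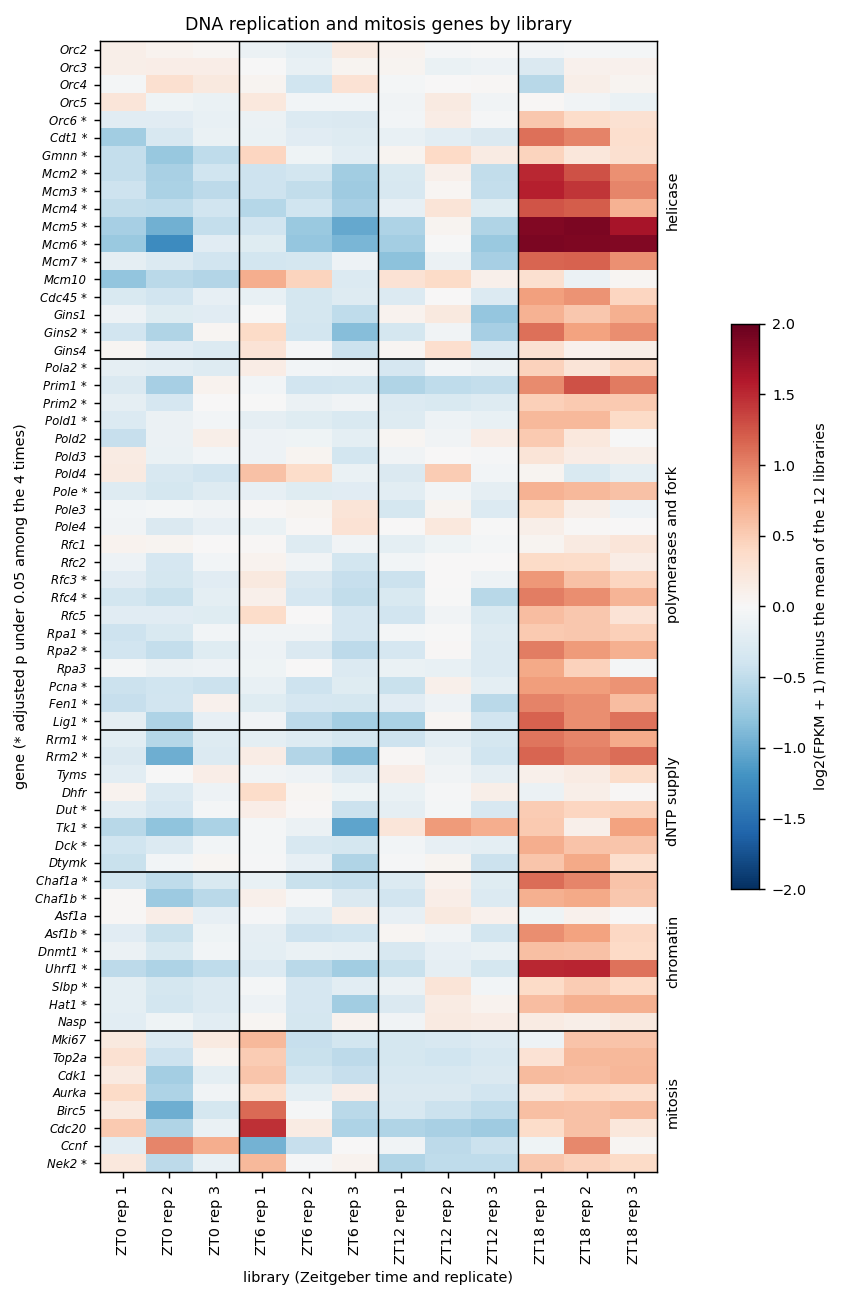
Heat map of the tested DNA replication and mitosis genes, 1 row per gene and 1 column per library, as log2(FPKM + 1) minus the mean of the 12 libraries. The 3 ZT18 columns are red for nearly all helicase, fork, nucleotide and chromatin genes, asterisks mark genes that changed with time, and the mitosis rows also hold red cells in ZT6 replicate 1.

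Promoters of the 2 helicase genes with the largest ZT18 differences are shown because both hold a site of the E2F factors that time S phase genes. They are again the 250 bases before the RefSeq start (GRCm38.p6), with capitals for the E2F letters TTTGGCGC on either strand, in Mcm6 (chr1:128359706-128359955, minus strand) and Mcm5 (chr8:75109259-75109508, plus strand).
Mcm6: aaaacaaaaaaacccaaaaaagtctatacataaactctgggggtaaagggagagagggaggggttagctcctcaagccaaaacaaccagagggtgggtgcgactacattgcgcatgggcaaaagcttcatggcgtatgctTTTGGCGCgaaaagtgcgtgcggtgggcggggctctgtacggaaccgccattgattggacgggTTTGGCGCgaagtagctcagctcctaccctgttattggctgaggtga
Mcm5: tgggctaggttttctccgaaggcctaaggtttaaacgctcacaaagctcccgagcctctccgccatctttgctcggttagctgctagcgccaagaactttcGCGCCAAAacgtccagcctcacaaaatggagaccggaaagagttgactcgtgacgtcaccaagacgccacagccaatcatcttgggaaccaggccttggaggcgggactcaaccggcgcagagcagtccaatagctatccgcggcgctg
Mcm6 holds 2 such sites, which begin 110 and 47 bases before the start, and Mcm5 holds 1 at 149 bases, read on the opposite strand. These letters lay in 79 of 7784 promoters (1.015%), in 3 of 116 promoters of ZT18 genes (2.59%) and in 2 of 29 promoters of the replication genes highest at ZT18 (6.90%). Another form, TTTCCCGC, lay in 1.91% of all, 5 of 116 ZT18 promoters (4.31%) and 1 of 29 replication promoters (3.45%), and the general CCAAT box in 41.0%, 49.1% and 69.0%. Most replication promoters held neither E2F form in these windows.

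Other genes high at ZT18 lay outside DNA synthesis. Cry1 and Ppp1r3c, given above, were among the 8 with the largest differences, as was Chrna4, a nicotinic receptor subunit, at 5.88, 2.87 and 3.01 FPKM at ZT18 and 0.0209 to 1.33 at other times (log2 difference 1.53 ± 0.23 SE, adjusted p = 0.00695). Its 3 ZT18 libraries were the highest, with replicate 1 well above the other 2.

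Times 12 h apart were also compared directly. The contrast of ZT12 with ZT0 called 248 genes higher (2.45%) and 136 lower (1.34%), and that of ZT18 with ZT6 called 95 higher (0.938%) and 44 lower (0.434%); whether these counts differ was not tested. With values as deposited the splits were 141 against 222 and 204 against 26. Without ZT0 replicate 1 and ZT6 replicate 3 they were 425 (4.24%) against 243 (2.42%) and 238 (2.37%) against 325 (3.24%), so that the second split turned round. Alas1, Ciart and Tef were among the genes higher at ZT12 than at ZT0, and Arntl, Clpx and Chka among those lower. A pattern that alternates every 12 h, which a daily cosine cannot hold, was called in 28 genes (7 higher at ZT0 and ZT12, 0.0691%, and 21 higher at ZT6 and ZT18, 0.207%). These were 20 genes highest at ZT18, 7 at ZT12 and 1 at ZT0, and the 5 of smallest p, Ciart, Uhrf1, Rrm1, Pole and Nrg4, each had 1 sharp peak with 3 lower times. The alternation count was 0 with a pseudocount of 0.1 (994 at an unadjusted p under 0.05), and 0 without ZT12 replicate 1 or ZT18 replicate 2 (852 and 907).

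Genes of fat and cholesterol synthesis, which liver raises after meals, spread widely between libraries of 1 time. Of 16 genes for fatty acid synthesis 1 changed, and of 24 for cholesterol none did, against 4.25% of all genes. At an unadjusted p under 0.05 were 6 and 3 of them, against 1985 of all 10129 tested. Time explained a median of 39.02% and 20.3% of the variance of these genes, against 37.8% over all genes. The median ratio of the highest to the lowest time was 2.45-fold and 1.53-fold, against 1.21-fold over all genes. None of 29 genes for fatty acid oxidation and ketogenesis changed (7 at an unadjusted p under 0.05), but 10 did without ZT0 replicate 1 and ZT6 replicate 3, 6 of them highest at ZT6, where 11.2% of all genes changed. The 1 call of the fatty acid synthesis list ended without ZT12 replicate 2.

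Thrsp, a lipogenic gene that responds to feeding, was at 15.2, 189.9 and 260.2 FPKM at ZT0, 64.3, 101 and 17.5 at ZT6, 1559, 519 and 339 at ZT12 and 490.3, 404 and 254 at ZT18. ZT0 replicate 1 was far below the other ZT0 libraries, and no group stood clear of the rest (adjusted p = 0.118). Its adjusted p was 0.0305 without ZT0 replicate 1 and ZT6 replicate 3, with its highest mean at ZT12. Fasn, fatty acid synthase, was at 12.5, 31.9 and 43.6 FPKM at ZT0, 16.9, 35.6 and 14.3 at ZT6, 87.3, 58.3 and 24.5 at ZT12 and 73.8, 28.8 and 35.2 at ZT18 (adjusted p = 0.405). Pnpla3, a lipid droplet protein gene, was at 0.425, 8.63 and 7.3 FPKM at ZT0, 0.544, 0.689 and 0.456 at ZT6, 17.3, 3.34 and 0.808 at ZT12 and 9.47, 3.26 and 2.86 at ZT18 (adjusted p = 0.398), low in ZT0 replicate 1, in ZT12 replicate 3 and in all ZT6 libraries. Elovl6, which lengthens the products of Fasn, was the 1 that changed, at 5.31, 7.05 and 7.05 FPKM at ZT0, 7.72, 7.53 and 4.59 at ZT6, 29.1, 25.2 and 12.5 at ZT12 and 25.5, 12.2 and 17.2 at ZT18. All ZT12 and ZT18 libraries lay above all ZT0 and ZT6 libraries (adjusted p = 0.0197). Insig2, which holds cholesterol synthesis back, had the smallest p of its list (adjusted p = 0.0571), at 82.7 ± 38 FPKM at ZT0 and 32.4 ± 4.5 at ZT12 (SD, n = 3). Without the same pair of libraries its adjusted p was 0.0166 and its highest mean at ZT18, and for Fasn and Pnpla3 the adjusted p was 0.521 and 0.22.

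Several genes of fasting were high in ZT0 replicate 1, and whether feeding differed between libraries was not tested. Fgf21, a fasting hormone, was at 6.31, 1.09 and 0.29 FPKM at ZT0 (adjusted p = 0.484), and Igfbp1, an insulin-suppressed binding protein, at 229, 65.5 and 40.5 (adjusted p = 0.493). In both ZT0 replicate 1 was the highest of its time. Angptl4, which inhibits lipoprotein lipase, was at 63.7, 8.31 and 8.98 FPKM at ZT0, 51.5, 48.5 and 36.9 at ZT6, 29.5, 31.9 and 32.6 at ZT12 and 12.8, 18.4 and 15.8 at ZT18 (adjusted p = 0.294), with ZT0 replicate 1 the highest of all 12. The adjusted p of Angptl4 was 0.000118 without ZT0 replicate 1 and ZT6 replicate 3, with ZT6 highest. Cpt1a, which admits fatty acids to mitochondria, was at 78.4, 40.1 and 42.3 FPKM at ZT0, 71.8, 69 and 54.1 at ZT6, 54, 62.5 and 78.9 at ZT12 and 31.8, 33.2 and 32.8 at ZT18. The 3 ZT18 libraries were the lowest (adjusted p = 0.0776, or 0.00375 without this pair of libraries, with ZT6 highest). Glycerolipid genes changed in 3 of 16 cases, all highest at ZT12, where 4.25% of all genes changed and 1.71% did with ZT12 highest. They were Lpin1, which makes diacylglycerol (11.5, 5.13 and 3.14 FPKM at ZT0, 9.32, 17.2 and 25.2 at ZT6, 21.7, 30.6 and 28.8 at ZT12 and 6.67, 5.39 and 4.1 at ZT18; adjusted p = 0.0197), the acyltransferase gene Dgat2 (245 to 265 FPKM at ZT12 and 111 to 222 elsewhere; adjusted p = 0.0494) and the lipase gene Pnpla2, which was low at ZT18 (9.38 to 12.3 against 12.8 to 19.4; adjusted p = 0.0308). None of the 3 was called without ZT12 replicate 3, none with no filter, and 1 with values as deposited. Thrsp, Fasn, Pnpla3, Fgf21, Igfbp1 and Angptl4 were chosen for naming after their values were seen.

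**Figure D5:**
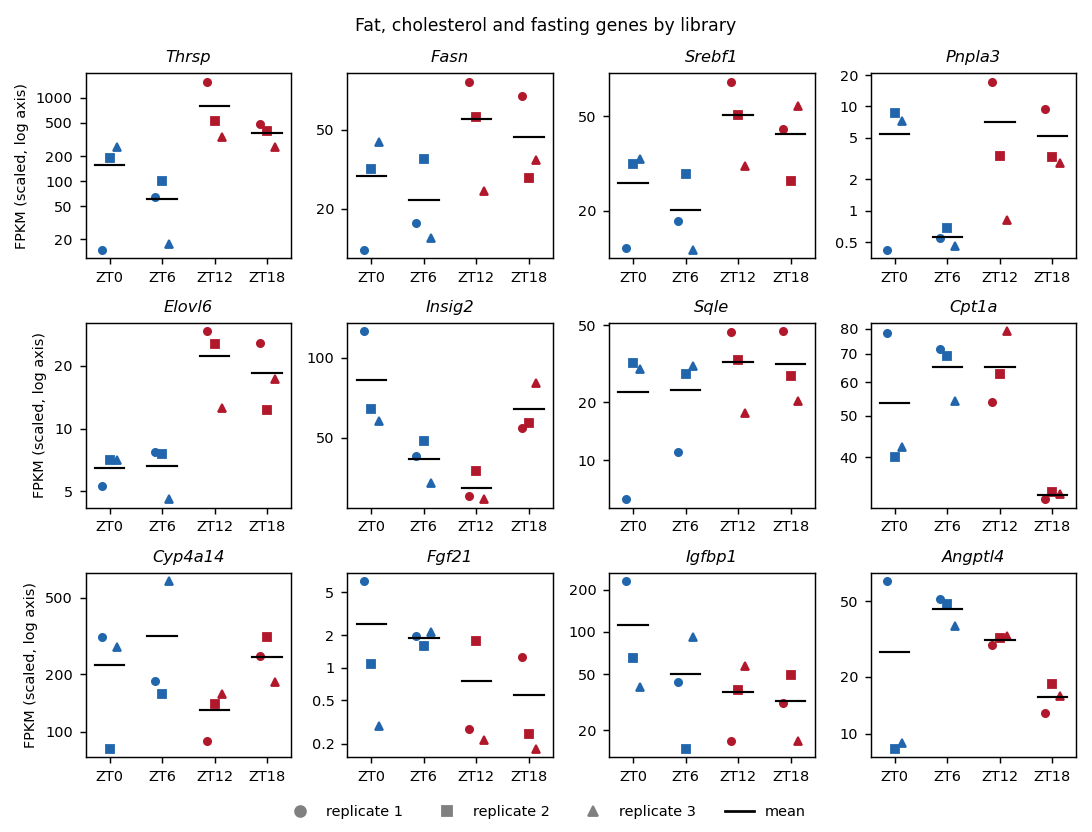
Scaled FPKM of 12 genes of fat, cholesterol and fasting metabolism on log axes, 1 point per library (circle, square and triangle for replicates 1, 2 and 3; blue for ZT0 and ZT6, red for ZT12 and ZT18) and a bar at the mean of 3. ZT0 replicate 1 lies far below its group in Thrsp, Pnpla3 and Sqle and above it in Angptl4 and Fgf21, and of the panels only Elovl6 changed with time.

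The remaining lists held few changes. In the unfolded protein response 1 of 24 genes passed, near the 4.25% of all genes. It was Herpud1 of protein disposal at the endoplasmic reticulum (175 ± 49 FPKM at ZT12 and 73.6 ± 6.9 at ZT18; SD, n = 3; adjusted p = 0.0351). Of 18 acute phase genes 2 passed, Fgg and Saa4 (80.2 to 93.4 FPKM at ZT12 and 42.2 to 70.5 elsewhere; adjusted p = 0.036). The calls of Herpud1 and Saa4 ended in 6 and 8 of 12 fits with 1 library left out (adjusted p up to 0.116 and 0.131). None passed among 24 for ribosome biogenesis, 28 ribosomal proteins, 25 for oxidative phosphorylation, 22 for conjugation, 13 for iron, 12 immediate early genes and 15 for lipoprotein assembly (6, 1, 0, 5, 3, 2 and 1 at an unadjusted p under 0.05). Without ZT0 replicate 1 and ZT6 replicate 3, 6 genes of the unfolded protein response changed, 5 each of ribosome biogenesis, conjugation and the acute phase, 9 of amino acid breakdown, 8 of glucose handling, 10 of the glucocorticoid list and 16 of the clock, where 11.2% of all genes changed. The genes of smallest p in the lists with no call were Nhp2 (adjusted p = 0.0575), Rpl30 (0.192), Cyc1 (0.27), Gsta3 (0.129), Hamp (0.112), Ier3 (0.0692) and Sar1b (0.0656). Without the pair of libraries Rpl30, Gsta3, Ier3 and Sar1b passed (adjusted p = 0.0245, 0.0479, 0.0402 and 0.0344). Hamp, the iron hormone hepcidin, was at 333, 425 and 549.6 FPKM at ZT0, 92.7, 136 and 32.6 at ZT6, 993, 850.2 and 152 at ZT12 and 174, 6.27 and 45.7 at ZT18, with the libraries of ZT12 and of ZT18 spread more than 5-fold. Of the oxidative phosphorylation genes 22 of 25 had their highest mean at ZT12, against 29.6% of all genes tested. Their median log2 difference at ZT12 was 0.14, and 0.01 over all genes. As deposited, without scaling, that median was 0.02 at ZT12 and 0.17 at ZT18.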

How the data were processed

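Liver RNA of control pregnant mice, in 12 libraries, 3 at each of 4 times, was measured by poly(A) sequencing with a strand-specific kit, per the labels' protocols. The authors aligned reads to mm10 with TopHat2 2.1.1 and assembled and quantified transcripts with Cufflinks 2.2.1, per the submitters' processing notes, and the deposited table of this group held 1 FPKM value per gene and library. The header names no unit, and FPKM was taken from these tools and the values, so that depth is unknown and the number of libraries limits the precision. Whether counting used the strand is not given in the sources used here.

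From 24883 table entries, 280 symbols that stood on 817 entries were left out, and 24066 genes were kept. Median-of-ratios factors over the 12 libraries set them to 1 scale, and values were transformed as log2(FPKM + 1), which understates changes of low genes. The 10129 genes with at least 1 FPKM in at least 3 libraries were tested with limma 3.58.1 (R 4.3.3; Python 3.11.15) by a moderated F test over times and by contrasts, with Benjamini-Hochberg adjustment over all genes at 0.05. A gene is said to change with time where the F test passed. Folds are ratios of the highest to the lowest time mean on the FPKM + 1 scale, and cosine fits had a 24 h period. The scripts were tested on simulated data.

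The members and gene lists were chosen with earlier results of these data known. Named genes are all core clock genes, the 8 of largest difference at each time among genes past both tests with a mean of at least 1 FPKM there, up to 4 of smallest p per list, or the 1 of smallest p where none passed, and 5 for the 12 h alternation. Any other gene named is said to be chosen after its values were seen, and some genes that the rule names are not reported here. Replicate numbers were not used as pairs in the main fit, and the sample titles do not say what they stand for. Alternatives were a pseudocount of 0.1, no filter, values as deposited, upper quartile scaling, a robust prior, a replicate block, cosine terms and leaving out each library. GC and length trends, and leaving out ZT0 replicate 1 and ZT6 replicate 3 together, were added after the data were seen. That pair was chosen from these same values, so the counts and p-values of the fit without it are descriptions.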

Additional observations from a re-analysis of the deposited data

How the results depend on the processing

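The count of 430 genes that changed with time lay between 357 and 496 with cosine terms (357), no filter (370), a pseudocount of 0.1 (402), upper quartile scaling (434), a robust prior (439), GC and length trends removed (467) and values as deposited (496, of which 358 were among the 430). None of the 71 named genes that changed reversed its direction under any of these. Cosine terms, no filter and a robust prior leave the time means as they were, so no reversal could occur there. Of the 71, 40 were called in all 12 fits with 1 library left out, and 2 (Uhrf1 and Pole) in the 9 fits that tested them. A further 17 were lost in 1 to 6 of the 12 fits and 12 in 7 or more. The setting without a filter kept 51 of the 71, values as deposited 63, cosine terms 60 and the replicate block 58.

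With a pseudocount of 0.1, 0 genes alternated every 12 h (limma; 994 at an unadjusted p under 0.05). With no filter, ZT0 differed from the other times in 39 genes, ZT6 in 17, and 47 alternated. With values as deposited, peaks at ZT0, ZT12 and ZT18 numbered 94, 107 and 249, ZT0 differed in 64 genes, ZT18 in 314, and ZT18 from ZT6 in 230. Without ZT0 replicate 1 and ZT6 replicate 3, 1119 genes changed, with 176, 352, 349 and 242 peaks at ZT0, ZT6, ZT12 and ZT18, contrasts of these times with the rest in 284, 404, 607 and 274 genes, ZT12 from ZT0 in 668, ZT18 from ZT6 in 563, and 116 alternating. The cause of these shifts was not tested.

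Same-numbered libraries of different times deviated together in 6 of 18 pairs (correlations over 0.1; range -0.60 to 0.30), and 2 of 12 libraries correlated best with their own number. These values showed no clear pairing by number, and whether same-numbered libraries share a batch or collection was not tested. With a replicate block 244 genes changed, 235 of them among the 430, with 33, 24, 101 and 86 peaks at ZT0, ZT6, ZT12 and ZT18. Under the block ZT0 differed in 39 genes, ZT6 in 5, ZT18 from ZT6 in 80, and 0 alternated (914 at an unadjusted p under 0.05). The glycerolipid list then held 0 calls.

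Leaving out 1 library gave 182 to 711 genes that changed, with 22 to 107 peaks at ZT0, 19 to 174 at ZT6, 64 to 264 at ZT12 and 64 to 187 at ZT18. The contrasts ran from 16 (without ZT0 replicate 2) to 193 genes (without ZT6 replicate 3) for ZT0, 5 (without ZT6 replicate 1) to 185 (without ZT0 replicate 1) for ZT6, 107 (without ZT12 replicate 3) to 495 (without ZT6 replicate 3) for ZT12 and 38 (without ZT18 replicate 1) to 233 (without ZT6 replicate 3) for ZT18. ZT12 differed from ZT0 in 157 to 576 genes, ZT18 from ZT6 in 49 to 266, and 0 to 51 alternated.

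With 3 libraries a time, 4 times 6 h apart and no second day, a peak is placed no more finely than its cosine SE, and a rhythm cannot be told apart from other differences between collections. Depth is unknown, so genes under 1 FPKM are limited by counting error of unknown size.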

Other observations

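Regulators outside the lists also moved with time, and those given here were chosen after their values were seen. At ZT12, Klf13, a Krüppel-like factor, was at 9.83, 10 and 12.1 FPKM against 3.02 to 6.78 at the other times (limma, adjusted p = 0.0004). Foxo1, which drives glucose output when insulin is low, was at 7.7, 7.04 and 9.05 and 3.59 to 4.81 (adjusted p = 0.00735), and Ddit4, an inhibitor of the growth kinase mTORC1, at 10.7, 9.48 and 8.41 and 2.11 to 8.24 (adjusted p = 0.00326). In all 3 the ZT12 libraries stood above the other 9. Cebpb, Trib1, Klf15 and Pik3r1 were likewise highest at ZT12 (adjusted p = 0.021, 0.00898, 0.028 and 0.028). Ces1d, a carboxylesterase of triglyceride breakdown, was at 314, 331 and 339.9 FPKM at ZT0, 299.7, 240.2 and 174 at ZT6, 589.5, 746 and 735 at ZT12 and 668, 548 and 581 at ZT18. Its ZT12 and ZT18 libraries all lay above its ZT0 and ZT6 libraries (adjusted p = 0.00168), but it belongs to a family of close copies, so its level is uncertain.

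At ZT0, Slc16a1, the lactate and ketone carrier MCT1, was at 27.3, 19.2 and 19.9 FPKM at ZT0, 12.4, 15.7 and 11.1 at ZT6, 11.1, 9.4 and 9.14 at ZT12 and 21.3, 18.6 and 20.5 at ZT18. The ZT0 and ZT18 libraries lay above the ZT6 and ZT12 libraries (adjusted p = 0.00564). Thra, a thyroid hormone receptor gene, had the same order, at 2.43 ± 0.41 FPKM at ZT0 and 1.3 ± 0.14 at ZT12 (SD, n = 3; adjusted p = 0.0206). At ZT18 the 3 libraries lay above the other 9 in Topbp1, a checkpoint activator, at 3.47, 3.45 and 3.45 FPKM against 1.38 to 1.83 at the other times (adjusted p = 0.000768), and in the fork protection gene Timeless, at 2.06, 2.02 and 1.5 and 0.489 to 0.901. Timeless reaches the filter at ZT18 only and had an adjusted p of 0.00207 with no filter. Odc1, the first enzyme of polyamine synthesis, was at 11.1, 18.2 and 20.6 FPKM at ZT0, 16.9, 24.1 and 17.3 at ZT6, 33.7, 27.9 and 28.1 at ZT12 and 35, 36.9 and 32.7 at ZT18 (adjusted p = 0.0274), highest at ZT18 with overlap with ZT12, and its call ended in 7 of 12 fits with 1 library left out (adjusted p up to 0.0766).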
